A study of Mus musculus with 10 samples.

Results

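The genes examined here are 10 heat shock chaperone and co-chaperone genes, chosen by symbol: Hspa1a, Hspa1b, Hspa8, Hsp90aa1, Hsp90ab1, Hsph1, Hspe1, Dnaja1, Dnajb1 and Bag3. Each symbol matched 1 of the 57010 Ensembl gene identifiers of the deposited table, and all 10 were among the 12455 identifiers tested, those whose normalized read count averaged 10 or more. RNA was sequenced from bone marrow-derived macrophages, cells cultured from precursors in mouse femurs, here for 7 days in medium with 20 ng/mL recombinant M-CSF. The 4 groups were wild-type (WT) cells left unconfined (2 libraries, replicates 1 and 3), WASp knockout (WKO) cells left unconfined (2 libraries, replicates 1 and 3), WT cells confined for 1 h at a height of 3 µm between silicone micropillars (3 libraries, replicates 2, 3 and 6) and WKO cells confined in the same way (3 libraries, replicates 1, 2 and 5). WASp, encoded by Was, activates Arp2/3-dependent actin branching in blood cells and the labels describe a knockout mouse, so that the loss is not limited to macrophages. The labels do not give the age or strain of the mice, whether libraries came from separate mice, or whether unconfined cells were placed in the device. The p-values therefore measure the spread between these libraries, which may be technical.

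Molecular chaperones bind unfolded stretches of other proteins and, driven by ATP, help them to fold or hand them on for degradation. The Hsp70 proteins (Hspa1a, Hspa1b, Hspa8) receive clients from J-domain proteins (Dnaja1, Dnajb1), release them with the help of exchange factors (Hsph1, Bag3) and can pass them to Hsp90 (Hsp90aa1, Hsp90ab1). When unfolded proteins accumulate, heat shock factor 1 binds repeated GAA units, called heat shock elements, in front of many chaperone genes. Hspe1 encodes Hsp10, the lid of the mitochondrial chaperonin, so that it is not a cytosolic chaperone although it is grouped with these genes.

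Hspa1a and Hspa1b encode the stress-inducible Hsp70, and their promoters are shown because both genes had higher values in confined cells and because their counts are hard to separate. Both are single-exon genes on the minus strand of chromosome 17 (GRCm38, GENCODE M21), Hspa1b (ENSMUSG00000090877) at chr17:34956436-34959238 and Hspa1a (ENSMUSG00000091971) at chr17:34969190-34972156, with 9951 bases between them. The 250 bases before each start site, from RefSeq on GRCm38.p6, lie at chr17:34972157-34972406 for Hspa1a and chr17:34959239-34959488 for Hspa1b and differ at 3 of 250 positions. They are written 5′ to 3′ on the minus strand, and capitals mark a match to the heat shock element letters GAANNTTC, 104 bases before the start site of each gene.
Hspa1a: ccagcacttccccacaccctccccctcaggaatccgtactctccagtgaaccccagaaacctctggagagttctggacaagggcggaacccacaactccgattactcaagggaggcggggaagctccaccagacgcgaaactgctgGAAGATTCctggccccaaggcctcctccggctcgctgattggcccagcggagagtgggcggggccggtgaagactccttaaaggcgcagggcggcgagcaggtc
Hspa1b: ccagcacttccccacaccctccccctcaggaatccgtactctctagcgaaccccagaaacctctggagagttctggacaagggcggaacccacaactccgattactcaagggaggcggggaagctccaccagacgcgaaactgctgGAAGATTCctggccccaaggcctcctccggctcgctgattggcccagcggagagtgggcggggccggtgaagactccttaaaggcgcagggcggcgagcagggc

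Short windows around the matches in the other promoters are shown for comparison, again from RefSeq on GRCm38.p6. The Hspe1 window (chr1:55088053-55088082, plus strand) begins its match 89 bases before the start site and holds 3 adjoining units or more, that is GAANNTTCNNGAA on one of the strands. Hsph1 has a pair of TTCNNGAA units 33 bases before the start (chr5:149636351-149636380, minus strand) and a 3-unit match 36 bases after it (chr5:149636287-149636316, minus strand). The Dnaja1 match lies 124 bases before a start (chr4:40722333-40722362, plus strand) and the Bag3 match 42 bases after one (chr7:128523603-128523632, plus strand).
Hspe1: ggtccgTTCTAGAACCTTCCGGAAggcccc
Hsph1, before the start: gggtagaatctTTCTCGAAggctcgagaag
Hsph1, after the start: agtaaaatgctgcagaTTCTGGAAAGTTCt
Dnaja1: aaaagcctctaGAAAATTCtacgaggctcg
Bag3: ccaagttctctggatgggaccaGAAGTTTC

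A promoter entry, 250 bases before to 50 after a start site, was matched for 7 of the 10 genes. Hspa8, Hsp90aa1 and Hsp90ab1 are named only. GAANNTTC, which reads the same on both strands, was found for 6 of the 7 (Hspa1a, Hspa1b, Hspe1, Hsph1, Dnaja1 and Bag3), against 9.04% of 27025 genes with a RefSeq promoter and 7.86% of the 32851 promoters of this length. TTCNNGAA, also its own reverse complement, was found for Hspe1 and Hsph1, for 9.6% of genes and in 8.52% of promoters. The 3-unit form GAANNTTCNNGAA, searched on both strands and overlapping the other 2 forms, was found for the same 2 genes, for 0.662% of genes and in 0.603% of promoters. CCAAT, searched on both strands, was found for 5 of the 7 (Hspa1a, Hspa1b, Hsph1, Dnaja1 and Dnajb1) against 41.1% of genes and 37.4% of promoters. TATAAA, searched on both strands, was found for 0 of the 7 against 15.7% of genes and 13.6% of promoters. A gene with several start sites was counted where any of its promoters matched, as for Dnaja1, which matched GAANNTTC in 1 of 3. These are matches of letters only.

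Depth was similar across the libraries, at 13295701 to 19329908 reads, and 3 reads, taken as the detection floor, were worth a normalized read count of 2.35 to 3.59. This floor covers counting error only. Was had normalized read counts of 1308 to 1649 in the WT libraries and 96.9 to 153.9 in the WKO libraries, in the direction of the labels. All 13 macrophage markers checked were detected in the 4 groups, and their sums were apart by genotype, at 223500 to 250500 in WT and 289700 to 363500 in WKO libraries. Markers of other cells also differed between groups. The 13 stromal markers summed to 907 to 1867 in WT unconfined, 2570 to 3036 in WKO unconfined, 235 to 828 in WT confined and 971 to 10770 in WKO confined libraries, with the highest sum in WKO confined replicate 5. The 13 neutrophil and progenitor markers summed to 11910 to 13180 in WT unconfined and 5453 to 12830 in WT confined libraries. In WKO they summed to 26920 to 32830 unconfined and 8536 to 30610 confined. The 8 B-lineage markers in the table summed to 1049 to 1065 in WT unconfined and 423 to 868 in WT confined libraries. In WKO their sums were 5212 to 5483 unconfined and 1834 to 6538 confined. The 9 T and NK cell markers summed to 298.5 to 340 in WT unconfined and 221 to 225 in WT confined libraries. In WKO they had 433 to 463 unconfined and 369.5 to 458 confined. For confinement over both genotypes, 0 of 13 neutrophil and progenitor and 0 of 6 tested B-lineage markers had log2 differences above 0. Their medians were -1.27 and -1.28, and 7 of 13 macrophage markers and 47.3% of all tested genes were above 0. Single markers did not all follow the sums. For WASp loss over both conditions, 10 of 13 macrophage and 12 of 13 neutrophil and progenitor markers had log2 differences above 0. Of the tested markers, 5 of 6 B-lineage and 11 of 11 stromal ones did, where 50.7% of all tested genes did. Ncr1 and Trac (T and NK cells) and Xcr1 (dendritic cells) were at 0 in every library. In bulk RNA, fewer cells of a type and less RNA per cell cannot be told apart.

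The chaperone genes differed widely in level. Levels can be compared between genes only per length, and are given here as the group mean of the normalized read count per kilobase of the longest principal transcript. Hspa8, the constitutive Hsp70, was highest at 9120 to 10200 over the 4 groups, followed by Hsp90ab1, the constitutive Hsp90, at 6160 to 7730 and Hsp90aa1, the inducible Hsp90, at 1220 to 2010. Hspe1 had 610 to 839 and Bag3 369 to 502. Dnaja1 had 227 to 268, Hsph1 174 to 249 and Dnajb1 162 to 226, and these 3 are neighbours whose libraries overlapped in some groups. The inducible Hsp70 genes were lowest, Hspa1a at 6.65 to 82.3 and Hspa1b at 5.25 to 42.4. Apart from the 3 neighbours named and the Hspa1a and Hspa1b pair, the libraries of adjacent genes in this order did not overlap within any group. The value for Dnaja1 depends on the length of 5622 bases of the transcript chosen.

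Several counts are uncertain because of shared sequence. The coding sequences of Hspa1a (1923 bases) and Hspa1b (1926 bases) differ at 8 of 1923 aligned bases, an identity of 99.6%, with an identical run of 638 bases. Over the whole transcript, Hspa1b covers 74.0% of Hspa1a at 99.2% identity. The sources used here do not say how reads matching both were counted, so that the sum of the 2 genes is given beside each. Hspa8 has 6 similar genes that cover at least 20% of its transcript at 95% identity or more, of which 3 were above the detection floor; Gm15459 among them had 91.1 to 147 normalized reads against at least 19141 for Hspa8. Hsp90aa1 and Dnaja1 have 3 such genes each and Hspe1 has 1. Hspe1, Dnaja1, Hspa1a and Hspa8 also overlap an annotated exon of another gene (Hspd1 for Hspe1, Smu1, Gm6297 and Mir207 for Dnaja1, Gm20481 for Hspa1a, and Snord14c, Snord14d and Snord14e for Hspa8). Their counts are uncertain to that extent, since the use of strand in counting is not stated.

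Confined cells had more Hspa1a and Hspa1b RNA than unconfined cells, and the amounts were small in unconfined cells of both genotypes. The normalized read count of Hspa1a was 26.6 and 15.4 in WT unconfined and 17.8 and 21.7 in WKO unconfined libraries. After confinement it was 77.1, 89.2 and 121 in WT (replicates 2, 3 and 6) and 242, 96.9 and 394 in WKO (replicates 1, 2 and 5). Every confined library was above every unconfined one, and the WKO confined libraries spread over a wider range than the others. The means rose 12.4-fold in WKO, from 19.7 ± 2.77 (SD, n = 2) to 244 ± 149 (SD, n = 3), a log2 difference of 3.35 (SE 0.494, limma adjusted p 0.00542). In WT the mean was 20.98 ± 7.95 (SD, n = 2) unconfined and 95.9 ± 22.8 (SD, n = 3) confined, a ratio of 4.57 and a log2 difference of 2.16 (SE 0.494) that did not pass (limma adjusted p 0.0662).

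Hspa1b had values of 31.35 and 39.35 in WT unconfined and 10.85 and 18.6 in WKO unconfined libraries. In confined cells they were 70.7, 36.4 and 97.2 in WT (replicates 2, 3 and 6) and 164, 74.75 and 117 in WKO (replicates 1, 2 and 5). The WT groups overlapped, because confined replicate 3 lay between the unconfined libraries, while the WKO groups did not. Hspa1b rose in WKO by 2.90 on the log2 scale (SE 0.460, limma adjusted p 0.00852), an 8.07-fold rise of the mean. In WT its log2 difference was 0.83 (SE 0.460, limma adjusted p 0.515).

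With the pair added, the sum was 57.95 and 54.7 in WT unconfined, 28.6 and 40.3 in WKO unconfined, 148, 125.5 and 218.5 in WT confined and 406, 172 and 512 in WKO confined libraries. These sums stand for 61 and 57, 29 and 39, 138, 107 and 272, and 517, 163 and 427 reads. The sum rose 10.5-fold in WKO (log2 difference 3.24, limma adjusted p 0.00214). In WT its ratio was 2.91 (log2 difference 1.49, limma adjusted p 0.131). Over both genotypes the log2 difference was 2.36, which passed (limma adjusted p 0.000663), with all 6 confined libraries above all 4 unconfined ones.

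**Figure D1:**
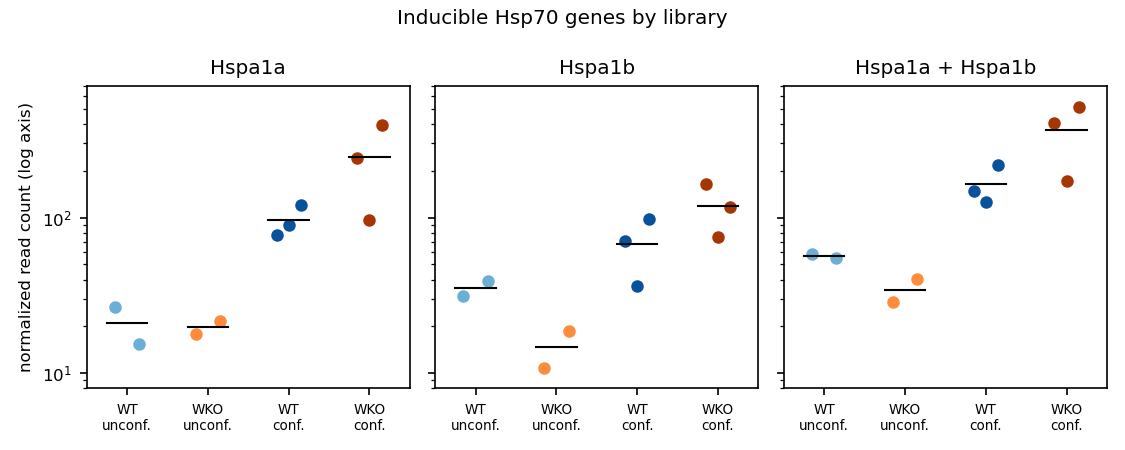
Normalized read count (log axis) of Hspa1a, of Hspa1b and of their sum in the 10 libraries, by group. Points are libraries in order of replicate number and bars are group means; for Hspa1a the confined libraries lie between 77.1 and 394 and the unconfined ones between 15.4 and 26.6.

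Some fits ended the WKO calls for the pair. Without WKO unconfined replicate 1 the WKO difference was 3.22 for Hspa1a (limma adjusted p 0.084) and 2.54 for Hspa1b (0.127), whereas without replicate 3 it was 3.49 (0.0429) and 3.27 (0.0333). With only the WKO libraries in the fit the differences were as above, 3.35 and 2.90, with limma adjusted p of 0.0678 and 0.0658. Without the mean-variance trend it was 0.0579 for each. WKO confined replicate 5 had the highest Hspa1a value and the highest stromal marker sum, and without it the WKO difference was 2.90 for Hspa1a (limma adjusted p 0.00412) and 2.88 for Hspa1b (0.00995). In WT, Hspa1a passed without WKO confined replicate 2 (0.0163) or replicate 5 (0.0115), with DESeq2 (0.00133) and with only the WT libraries (0.014). The part of the other markers in these differences was not tested.

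Of the Hsp90 genes, Hsp90aa1 was higher after confinement. It had 5248 and 4672 in WT unconfined, 4163 and 3817 in WKO unconfined, 6175, 6010 and 7604 in WT confined, and 5492, 5971 and 6396 in WKO confined libraries. No confined library overlapped an unconfined one. The gene rose over both genotypes by 0.49 on the log2 scale (SE 0.0894, limma adjusted p 0.00768), with ratios of 1.33 in WT and 1.49 in WKO. Alone, the WKO difference was 0.58 (SE 0.126, limma adjusted p 0.0453) and the WT difference 0.41 (SE 0.126, limma adjusted p 0.188). The WKO call held in 9 of 23 alternatives (20 of 23 for Hspa1a and for Hspa1b), and leaving out any of 8 libraries (all except WT confined replicate 6 and WKO confined replicate 1) gave limma adjusted p of 0.0643 to 0.371. Over both genotypes it held in 20 of 22, and without WKO unconfined replicate 3 the limma adjusted p was 0.0522.

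Hsp90ab1 had 16376 and 16570 in WT unconfined, 15792 and 15274 in WKO unconfined, 19038, 19015 and 20378 in WT confined, and 18451, 18042 and 15856 in WKO confined libraries. Confined libraries lay above unconfined ones within each genotype, but WKO confined replicate 5 lay below both WT unconfined libraries. The log2 difference over both genotypes was 0.20 (95% interval 0.0424 to 0.363, limma adjusted p 0.134), a ratio of 1.15. Without WKO confined replicate 5 it was 0.24 (limma adjusted p 0.0488), and with array weights 0.22 (0.0185). In each of these fits 4 of the 10 genes passed as higher. Of the 12455 tested genes 586 and 1341 passed as higher in them, against 515 in the main fit.

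Hspa8 was high and showed no difference past the threshold. Its values were 26777 and 22106 in WT unconfined, 22835 and 20810 in WKO unconfined, 22290, 21821 and 21891 in WT confined, and 24747, 19141 and 24248 in WKO confined libraries. All pairs of groups overlapped. The confinement difference over both genotypes was -0.05 on the log2 scale (95% interval -0.255 to 0.159, limma adjusted p 0.812).

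The J-domain proteins and Bag3 gave small differences. Dnajb1, which stimulates the ATPase of Hsp70, had 421 and 553 in WT unconfined, 534 and 505 in WKO unconfined, 522, 407 and 719 in WT confined, and 727, 590 and 714 in WKO confined libraries. The 3 WKO confined values lay above both WKO unconfined values (ratio 1.30, log2 difference 0.38, limma adjusted p 0.462). Bag3, an exchange factor that links Hsp70 to autophagy, had 1108 and 1466 in WT unconfined, 959 and 933 in WKO unconfined, 1054, 1077 and 1419 in WT confined, and 1209, 1088 and 1409 in WKO confined libraries. In WKO the groups were again apart (ratio 1.31, log2 difference 0.38, 95% interval 0.00425 to 0.748, limma adjusted p 0.351), while in WT they overlapped (log2 difference -0.12, limma adjusted p 0.834). Dnaja1, which also delivers clients to Hsp70, ranged from 1256 to 1705 over all libraries, with overlap in both genotypes and log2 differences of 0.06 in WT and 0.23 in WKO (limma adjusted p 0.916 and 0.519).

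**Figure D2:**
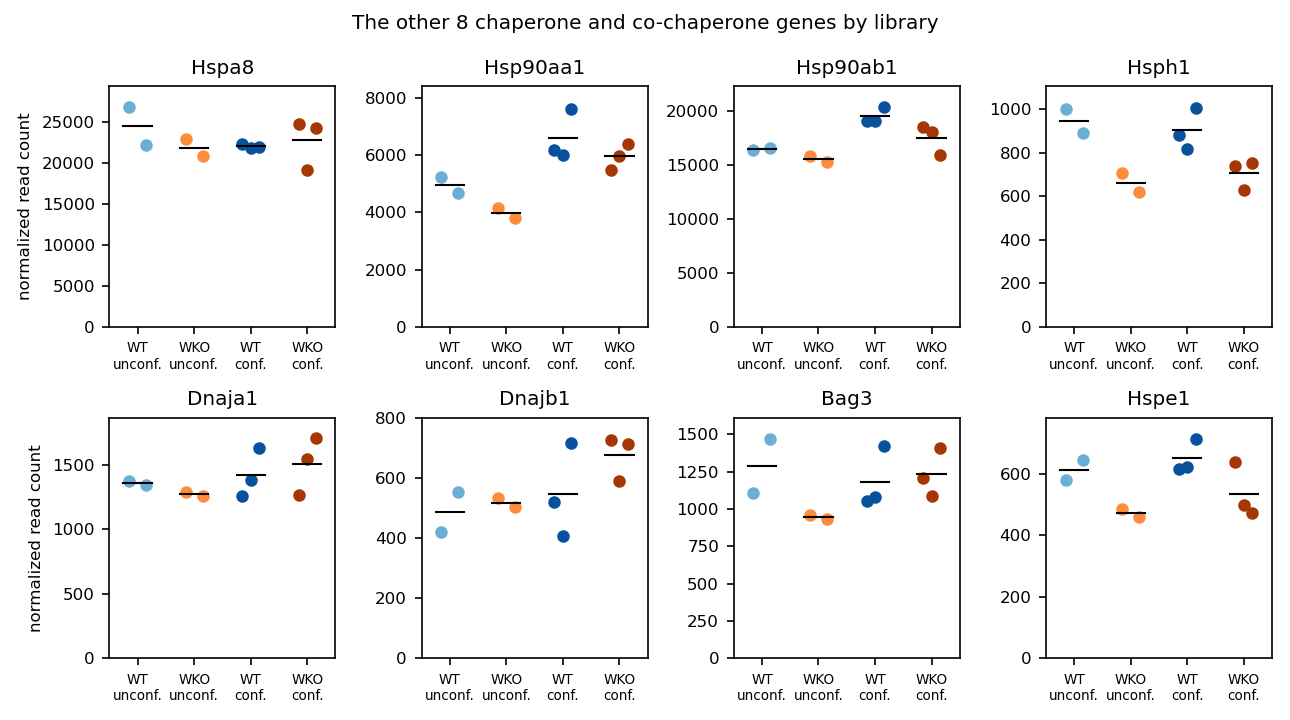
Normalized read count (linear axes from 0) of the 8 remaining genes in the 10 libraries, by group; points are libraries in order of replicate number and bars are group means. Hsp90aa1 is higher in every confined library, Hsph1 is lower in every WKO library, and Hspa8 overlaps between all groups.

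Counted over the 10 genes, 0 passed for confinement in WT, against 1.16% of all tested genes in either direction. At an unadjusted limma p under 0.05 there were 3 (Hspa1a, Hsp90aa1 and Hsp90ab1), against 12.2% of all genes. At an adjusted p under 0.05 DESeq2 called 1 of the 10 and edgeR 0, against 309 and 116 of the 12455 tested genes. In WKO 3 of 10 passed as higher (Hspa1a, Hspa1b and Hsp90aa1), against 1.49% of all genes. Over both genotypes the same 3 genes passed as higher, against 4.13%, and 0 passed as lower, against 2.07%. With edgeR 2 of the 10 passed as higher in WKO and with DESeq2 3, against 156 and 388 of the 12455 tested genes. The median log2 difference of the 10 genes was 0.12 in WT, 0.30 in WKO and 0.17 over both genotypes, beside -0.0066, -0.013 and -0.0162 for all tested genes. Under upper-quartile scaling the median of all genes moved to -0.0787 in WT, -0.116 in WKO and -0.104 over both genotypes. Under that scaling Hspa1a, Hspa1b and Hsp90aa1 kept their direction in each of these comparisons. Hsp90aa1 lost its WKO call (limma adjusted p 0.0855). Dnaja1 in WT, Hspa8 and Hsph1 in WKO, and Hsph1 over both genotypes changed sign under the same scaling.

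The count of genes whose libraries did not overlap was taken as well. In WT 3 genes (Hspa1a, Hsp90aa1 and Hsp90ab1) had every confined library above every unconfined one, against 18.3% of all genes. In WKO 6 did (the same 3 with Hspa1b, Dnajb1 and Bag3), against 14.5%. For the pooled genotypes it was 2 genes, Hspa1a and Hsp90aa1, against 4.46%.

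WASp loss was compared next, first in unconfined cells. Of the 10 genes 0 passed with limma, against 0.145% of all tested genes. DESeq2 and edgeR also called 0 of the 10, against 178 and 15 of the 12455 tested genes. At an unadjusted limma p under 0.05 there were 5 genes, all with lower WKO values, against 9.6% of all genes in either direction. They were Hspa1b (log2 difference -1.25, limma adjusted p 0.453), Hsph1 (-0.51, 0.263), Bag3 (-0.43, 0.494), Hspe1 (-0.37, 0.516) and Hsp90aa1 (-0.31, 0.501). The libraries of 7 genes did not overlap, with WKO below WT (these 5, Hsp90ab1 and Dnaja1), against 22.7% of all genes. The median log2 difference of the 10 genes was -0.24, beside 0.0022 for all tested genes.

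In confined cells 0 of the 10 genes passed between genotypes with limma, against 2.59% of all tested genes in either direction. With edgeR 0 of the 10 passed and with DESeq2 1, against 325 and 751 of the 12455 tested genes. At an unadjusted limma p under 0.05 there were 2, against 16.8% of all genes. Hspa1a had a WKO to WT ratio of 2.55 (log2 difference 1.15, SE 0.442, limma adjusted p 0.212), but the groups overlapped, since WKO replicate 2 (96.9) lay below WT replicate 6 (121). Without that WKO library the log2 difference was 1.70 (limma adjusted p 0.0372), and without WKO replicate 5 it was 0.70 (0.459). The other was Hsph1, at -0.35 (SE 0.126, limma adjusted p 0.177). Its libraries and those of Hsp90ab1 were apart, with WKO below WT, against 10.4% of all genes.

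Hsph1, the Hsp110 exchange factor that assists Hsp70 in dissolving aggregates, was lower in WKO cells. It had 1000 and 891.5 in WT unconfined, 706 and 619 in WKO unconfined, 884, 819 and 1006 in WT confined, and 738, 629 and 752 in WKO confined libraries. All 5 WKO libraries lay below all 5 WT libraries, which 3.33% of all genes also showed. The WKO mean was 0.701 times the WT mean in unconfined and 0.782 times in confined cells. Over both conditions Hsph1 fell by 0.43 on the log2 scale (SE 0.0996, limma adjusted p 0.0282). It was the 1 gene of 10 to pass as lower, against 2.67% of all genes. Confinement gave it a log2 difference of 0.01 (95% interval -0.207 to 0.227). The genotype call held in 14 of 22 alternatives, and without the mean-variance trend it did not pass (limma adjusted p 0.0706). It was lost, with limma adjusted p of 0.0527 to 0.155, when any of these was left out: WT unconfined replicate 1 or 3, WKO unconfined replicate 1 or 3, WT confined replicate 2 or 6, or WKO confined replicate 2. The macrophage, stromal, neutrophil, B-lineage and T and NK marker sums given above (the last mainly 1 gene) differed between genotypes as well. Their part in the Hsph1 difference was not tested.

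Hspe1, the mitochondrial member, had 579 and 645 in WT unconfined, 485 and 458 in WKO unconfined, 614, 623 and 712 in WT confined, and 637, 498 and 471 in WKO confined libraries. One WKO library, confined replicate 1, lay among the WT values. The genotype difference over both conditions was -0.33 (SE 0.110, limma adjusted p 0.107). Without that library it was -0.40 (limma adjusted p 0.0227), and with array weights -0.36 (0.0135). Its partner Hspd1, the chaperonin Hsp60, starts 111 bases away on the opposite strand. The 2 genes overlap, and Hspd1 covers 14.5% of the Hspe1 transcript at 100% identity. How reads from this overlap were counted is not stated. Hspd1 was 3344 and 2948 in WT unconfined, 2762 and 2428 in WKO unconfined, 3651, 3824 and 3807 in WT confined, and 2908, 2808 and 2417 in WKO confined libraries. It fell in WKO by 0.48 in confined cells (SE 0.1045, limma adjusted p 0.036) and by 0.38 over both conditions (SE 0.0826, limma adjusted p 0.0225), but these calls held in 12 of 23 and 15 of 22 alternatives. The confined call was lost with only the groups compared (limma adjusted p 0.0881) and, at 0.054 to 0.129, without either WKO unconfined library, any WT confined library, or WKO confined replicate 2 or 5. The call over both conditions was lost, at 0.0504 to 0.142, without WT unconfined replicate 1, either WKO unconfined library or any WT confined library.

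**Figure D3:**
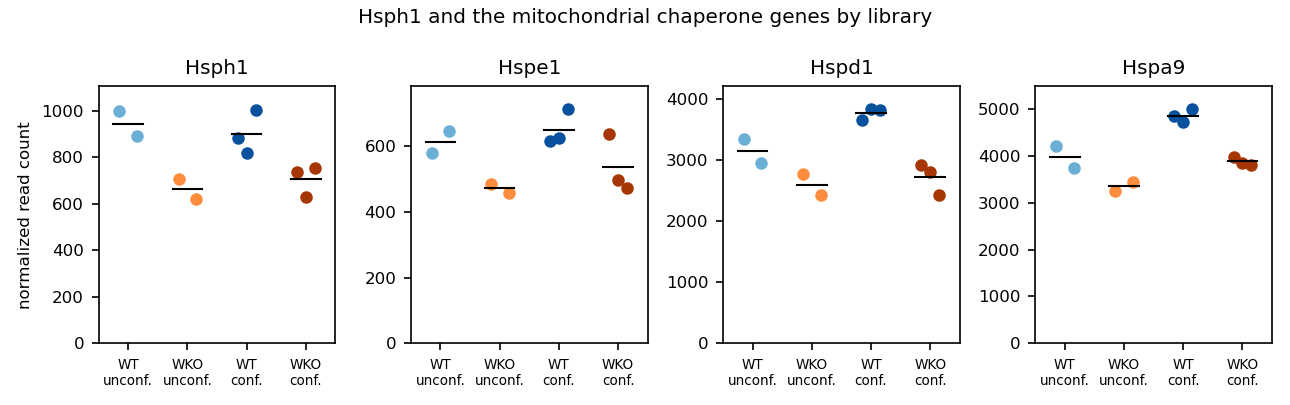
Normalized read count (linear axes from 0) of Hsph1, Hspe1, Hspd1 and Hspa9 in the 10 libraries, by group; points are libraries in order of replicate number and bars are group means. Hsph1 lies between 619 and 752 in WKO and between 819 and 1006 in WT libraries, and Hspd1 between 2417 and 2908 in WKO and between 2948 and 3824 in WT libraries.

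Whether the response to confinement differed between genotypes was tested by the interaction, the confinement difference in WKO minus that in WT. With limma 0 of the 10 genes passed, against 0% of all tested genes. DESeq2 and edgeR also called 0 of the 10 and 0 of all tested genes. At an unadjusted limma p under 0.05 there was 1, against 2.07% of all genes. This was Hspa1b, with an interaction of 2.08 on the log2 scale (95% interval 0.656 to 3.50, unadjusted limma p 0.00793, adjusted p 0.999). For Hspa1a it was 1.19 (95% interval -0.335 to 2.72) and for the sum of the pair 1.75 (limma adjusted p 0.999). For Bag3 it was 0.50 (95% interval -0.0292 to 1.02). A difference in the response of Hspa1b between genotypes was therefore not shown after adjustment.

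**Figure D4:**
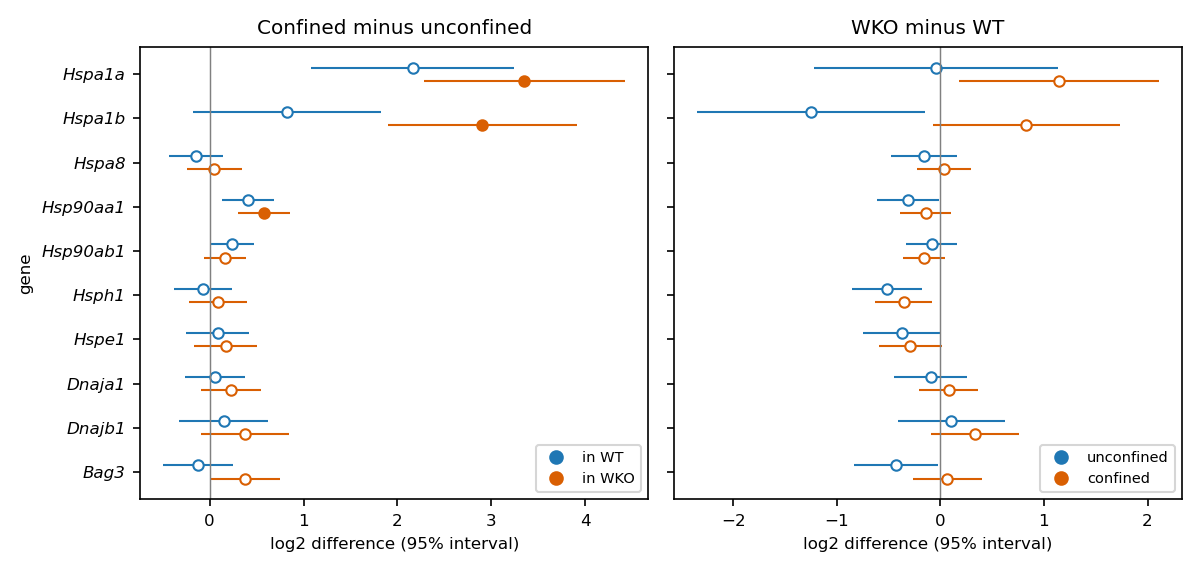
Log2 differences with 95% intervals for the 10 genes: confined minus unconfined in WT and in WKO (left) and WKO minus WT in unconfined and in confined cells (right). Filled points pass the limma adjusted p threshold of 0.05 and open points do not; only Hspa1a, Hspa1b and Hsp90aa1 in WKO are filled.

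The rest of the chaperone system was read from lists of related genes. Among 6 regulators of heat shock factors, 5 were tested and 0 passed in any comparison. Hsf1, the main activator of chaperone genes, ranged from 295 to 421 over the libraries, with log2 differences of -0.14 for confinement over both genotypes (limma adjusted p 0.54) and -0.10 for WASp loss over both conditions (0.717). Of 22 other cytosolic and nuclear Hsp70, Hsp110 and J-domain genes, 20 were tested. Over both genotypes 1 passed as higher after confinement, against 4.13% of all genes, and 19 of the 20 had differences above 0, with a median of 0.26, where 47.3% of all tested genes were above 0. The 1 was Dnajc21, a J-domain protein of ribosome assembly, which had 155.9 to 174 in unconfined and 234 to 339 in confined libraries and rose by 0.68 (SE 0.129, limma adjusted p 0.00982). Without WKO unconfined replicate 3 the limma adjusted p of Dnajc21 was 0.0535.

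Of 25 co-chaperones of Hsp70 and Hsp90, all tested, 1 passed as lower after confinement over both genotypes, against 2.07% of all genes, and 0 as higher, against 4.13%. This was Ppid, a prolyl isomerase that binds Hsp90, at 332 to 503.5 in unconfined and 228 to 313 in confined libraries; it fell by 0.61 (SE 0.125, limma adjusted p 0.0147). The Ppid call was lost without WT unconfined replicate 1 (0.0717) or WKO unconfined replicate 1 (0.0916). For WASp loss over both conditions 0 of the 25 passed, against 5.57% of all tested genes in either direction. Of the 25, 3 had differences above 0 (median -0.15), where 50.7% of all genes were above 0 (median 0.0033). Of 6 small heat shock protein genes 3 were tested and 0 passed in any comparison. For WASp loss over both conditions all 3 had differences above 0 (median 1.33). Of 14 subunits of the cytosolic chaperonin TRiC and of prefoldin, all tested, 0 passed in any comparison. In WKO against WT over both conditions, 2 of the 14 had differences above 0 (median -0.18). At an unadjusted limma p under 0.05 there were 2 small heat shock genes and 5 subunits, against 20.2% of all genes.

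Among 10 mitochondrial chaperones 0 passed for confinement. For WASp loss 1 passed as lower in confined cells (Hspd1, with the losses given above), against 1.2% of all tested genes, and 2 passed as lower over both conditions, against 2.67%. Beside Hspd1 this was Hspa9, the mitochondrial Hsp70, at 3248 to 3983 in WKO and 3737 to 4999 in WT libraries, which fell by 0.28 (SE 0.0695, limma adjusted p 0.0361) and kept its call in 12 of 22 alternatives. A list of 9 ubiquitin and proteasome stress genes was also read for confinement over both genotypes, in which 4.13% of all genes passed as higher. From it, Sqstm1, the autophagy receptor p62, rose by 0.97 (SE 0.197, limma adjusted p 0.0142), from 7866 to 10250 in unconfined to 13760 to 32060 in confined libraries, the highest being WKO confined replicate 5. The Sqstm1 call was lost without the mean-variance trend (0.0731) and without WT unconfined replicate 1 (0.0785), WKO unconfined replicate 1 (0.0751) or WKO unconfined replicate 3 (0.0541). Ubb, a polyubiquitin gene, rose by 0.37 (SE 0.0992, limma adjusted p 0.0492), with overlap of 3981 to 5431 and 5186 to 7830, a call kept in 10 of 22 alternatives.

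The genes whose values followed each chaperone gene most closely over the 10 libraries were found by Pearson r of log2(normalized read count + 1), as a description only. The libraries share their groups, so that any gene that differs between groups can reach a high r. Closest to the sum of Hspa1a and Hspa1b were Ets2 (r = 0.971), Ier5 (0.968), Nfkbid (0.960), Hoga1 (0.958) and Maff (0.953). Ets2 had 775 to 900.2 in unconfined, 1652 to 1957 in WT confined and 2191 to 3850 in WKO confined libraries, and Ier5 had 775 to 1104, 1650 to 2444 and 1637 to 2728. The single closest genes were Ets2 for Hspa1a (0.973), Vps4b for Hspa1b (0.951), Ltbr for Hspa8 (0.916), Cux1 for Hsp90aa1 (0.962) and Rcc2 for Hsp90ab1 (0.964). For the others they were Mid1ip1 for Hsph1 (0.971), Hax1 for Hspe1 (0.962), Mob4 for Dnaja1 (0.962), Plod1 for Dnajb1 (0.916) and Zdhhc18 for Bag3 (0.946). Among the 10 genes themselves Hspa1a and Hspa1b were the closest pair (r = 0.865). How reads matching both were counted is not stated.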

How the data were processed

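The authors deposited a table of normalized read counts (unit signal) for 10 mRNA libraries made from 5 ng of total RNA each. The submitters' processing notes name FastQC, Trim Galore and STAR and the builds GRCm38 and mm10; the counting tool, its annotation and its use of strand are not given in the sources used here. In each library 100% of the values were whole multiples of 1 read (tolerance 0.001 reads), so each is a read count divided by 1 factor per library. Symbols came from the deposited table for 33149 of the 57010 identifiers. The others took their symbol from GENCODE M21 or, failing that, kept the identifier. Positions came from GENCODE M21, shared sequence from blastn 2.17.0 and promoters from RefSeq.

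With 1 added, the normalized counts were log2-transformed and fitted by limma 3.58.1 (R 4.3.3): 1 mean per group, all 10 libraries, empirical Bayes with a mean-variance trend, and Benjamini-Hochberg adjustment over the 12455 genes with a mean of at least 10, threshold 0.05. Differences on this scale understate changes of low genes. The alternatives were other pseudocounts, filters, scalings and variance settings, edgeR 4.0.16 and DESeq2 1.42.0 on the recovered reads, smaller fits, a replicate block and leaving out each library. The sum of Hspa1a and Hspa1b was added after seeing the data. The fit was run on simulated independent libraries with planted changes, as a check of the code only. That check cannot show how the fit behaves where libraries share mice or differ in cell mixture. The members and lists were chosen with earlier results of these data known. Text names all 10 members, list genes passing in any comparison (at most 5 per list), Hsf1, and the closest genes by correlation. The values of 1 list gene are not reported here.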

Additional observations from a re-analysis of the deposited data

How the results depend on the processing

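Each of the 10 genes was recomputed in 7 comparisons. Hspa1a and Hspa1b, confined against unconfined over both genotypes, passed in 22 of 22 alternatives each. With array weights 419 genes passed for confinement in WT (1 of the 10 chaperone genes), 1735 in WKO and 2220 over both genotypes; between genotypes 166 passed unconfined, 1948 confined (2 of the 10) and 1804 over both conditions (2). Without the mean-variance trend the counts were 20, 45 (0 of the 10), 424, 4, 53 and 360 (0 of the 10) in the same order. DESeq2 gave 309 in WT (1 of the 10), 470 in WKO, 178 between genotypes unconfined, 751 confined (1 of the 10) and 1088 over both conditions. With only the groups compared the counts were 455 (1 of the 10), 33 (0 of the 10), 189 unconfined and 90 confined. Robust moderation gave 140 in WKO. Without the filter on low values 10 genes passed between genotypes unconfined, 186 confined and 438 over both conditions. The main counts were 144 in WT, 214 in WKO and 773 over both genotypes, and 18, 322 and 694 between genotypes. The cause of these moves was not tested.

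Among the 10 genes signs changed only for differences that did not pass as reported. Under upper-quartile scaling Dnaja1 was -0.017 in WT, Hspa8 -0.054 and Hsph1 -0.013 in WKO, Hsph1 -0.078 over both genotypes, and Dnaja1 3.3e-05 between genotypes over both conditions. With array weights Hspa8 was -0.138 and Hsph1 -0.039 for confinement in WKO, Hsph1 -0.070 over both genotypes, Hspa8 -0.15 and Bag3 -0.037 between genotypes in confined cells, and Dnaja1 0.019 over both conditions.

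Same-numbered libraries deviated from their group means with correlations of -0.11 to 0.0764, and the main fit did not pair them. In groups of 2 libraries the deviations mirror each other, so that replicates 1 and 3 of the unconfined groups gave the same value, 0.0334. With so few shared numbers this check cannot exclude pairing. With the replicate number as a block 1 of the 10 genes passed for confinement in WT (Hspa1a, 0.00665); 383 genes passed over both genotypes (limma adjusted p 0.104 for Hsp90aa1, 0.0933 for Ppid and 0.181 for Dnajc21, which lost their calls) and 245 between genotypes unconfined. The block also ended the calls of Hspd1 in confined cells (0.134), of Hspa9 (0.108), of Ubb (0.108) and of Hsp90aa1 in WKO (0.207). With the block Hspa8 was 0.0045, Dnaja1 -0.095 and Dnajb1 -0.078 for confinement in WT, and Hspa8 0.013 and Hsph1 -0.024 over both genotypes. Between genotypes Hspa8 was -0.141 in confined cells and Dnaja1 0.010 over both conditions, and the interaction of Hsp90ab1 was 0.015.

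Leaving out 1 library at a time gave 22 to 397 genes passing for confinement in WT (0 to 1 of the 10), 43 to 1043 in WKO (0 to 3 of the 10) and 288 to 1807 over both genotypes. Between genotypes it gave 4 to 141 unconfined, 58 to 701 confined (0 to 1 of the 10) and 169 to 1115 over both conditions (0 to 2 of the 10). Ranges that crossed 0 for confinement in WT were -0.153 to 0.013 for Hsph1, -0.045 to 0.142 for Dnaja1, -0.066 to 0.344 for Dnajb1 and -0.323 to 0.082 for Bag3. In WKO they were -0.017 to 0.168 for Hspa8 and -0.0045 to 0.185 for Hsph1, and over both genotypes -0.117 to 0.021 for Hspa8 and -0.037 to 0.057 for Hsph1. Between genotypes unconfined they were -0.42 to 0.335 for Hspa1a and -0.091 to 0.302 for Dnajb1. In confined cells they were -0.030 to 0.155 for Hspa8, -0.016 to 0.198 for Dnaja1 and -0.032 to 0.205 for Bag3. Over both conditions they were -0.13 to 0.0081 for Hspa8 and -0.055 to 0.051 for Dnaja1, and for the interaction -0.047 to 0.17 for Hspe1. Where this left a group with 1 library, that library was assumed to vary like the others. Groups of 2 or 3 libraries limit what small differences can be called, and the 11 to 41 reads of Hspa1a or Hspa1b in an unconfined library limit their ratios.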
